A study of Homo sapiens with 25 samples.

Results

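The genes described here are 6 markers of neuroendocrine cells, NEUROD1, INSM1, CHGA, SYP, DLL3 and UCHL1, out of 19974 protein-coding genes on chromosomes 1 to 22 and X. They were chosen by name, and every ChIP-seq peak that overlapped the gene body or the 50 kb on either side of it was counted (the window of a gene). The peaks came from 4 human lung adenocarcinoma cell lines that received no treatment, NCI-H2087, along with NCI-H358, NCI-H441 and HCC364, fixed with formaldehyde and sonicated. NKX2-1, H3K27ac and H3K4me1 were profiled in all 4 lines, and H3K4me3, RNA polymerase II (RNAPolII), FOXA2, SOX2, FOXA1, EP300, c-Jun and CTCF in NCI-H2087. Each combination of line and antibody was 1 library with its own peak list, 20 in all, so differences between lines are described without a replicate check or a p-value. The lines are established tumour cultures labelled as adenocarcinoma and not as neuroendocrine tumours.

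Neuroendocrine cells of the lung are rare airway cells that store hormones and amines in dense-core granules, and small-cell lung cancer shares their programme. NEUROD1 is a basic helix-loop-helix and INSM1 a zinc-finger transcription factor of that programme, chromogranin A (CHGA) is a core protein of the granules and synaptophysin (SYP) a membrane protein of small vesicles. DLL3 is a Notch ligand that acts mainly as an inhibitor of Notch signalling, and UCHL1 is a ubiquitin hydrolase abundant in neurons and neuroendocrine cells. In other cells the repressor REST holds many neuronal genes silent through RE1 elements. NKX2-1 is a homeodomain factor of lung and thyroid epithelium, also present in small-cell lung cancer, and often binds with the forkhead factors FOXA1 and FOXA2. SOX2 is a factor of stem and airway cells, c-Jun a subunit of AP-1, EP300 a histone acetyltransferase and CTCF an insulator protein. H3K27ac marks active promoters and enhancers, H3K4me1 enhancers, and H3K4me3 the starts of active genes and of many CpG-rich genes that are not transcribed.

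The DNA just before the start is shown for the members with an annotated start in the RefSeq promoter table (GRCh38.p14), to set its base composition beside the few peaks called at these starts. Of the 6 members 4 were matched; INSM1 and DLL3 are named only. Each line gives the 250 bases before the start in the direction of the gene, with CG dinucleotides in capitals. NEUROD1 lies at chr2:181680518-181680767 (minus strand), CHGA at chr14:92922900-92923149 (plus), SYP at chrX:49200194-49200443 (minus) and UCHL1 at chr4:41256678-41256927 (plus).
NEUROD1: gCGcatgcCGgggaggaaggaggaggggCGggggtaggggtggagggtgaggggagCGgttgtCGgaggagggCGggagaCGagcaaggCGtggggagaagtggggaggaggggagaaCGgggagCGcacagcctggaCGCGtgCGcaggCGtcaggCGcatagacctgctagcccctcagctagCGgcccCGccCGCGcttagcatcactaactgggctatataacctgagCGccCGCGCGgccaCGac
CHGA: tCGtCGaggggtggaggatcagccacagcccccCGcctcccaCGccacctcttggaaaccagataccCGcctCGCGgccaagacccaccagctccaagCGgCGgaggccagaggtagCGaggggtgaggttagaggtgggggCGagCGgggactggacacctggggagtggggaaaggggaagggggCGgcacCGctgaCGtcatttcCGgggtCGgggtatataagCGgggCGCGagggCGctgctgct
SYP: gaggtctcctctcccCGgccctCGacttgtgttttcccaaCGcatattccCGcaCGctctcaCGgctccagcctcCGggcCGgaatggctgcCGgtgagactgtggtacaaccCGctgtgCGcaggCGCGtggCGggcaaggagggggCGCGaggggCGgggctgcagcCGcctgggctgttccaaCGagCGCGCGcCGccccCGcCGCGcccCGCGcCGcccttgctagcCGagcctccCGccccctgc
UCHL1: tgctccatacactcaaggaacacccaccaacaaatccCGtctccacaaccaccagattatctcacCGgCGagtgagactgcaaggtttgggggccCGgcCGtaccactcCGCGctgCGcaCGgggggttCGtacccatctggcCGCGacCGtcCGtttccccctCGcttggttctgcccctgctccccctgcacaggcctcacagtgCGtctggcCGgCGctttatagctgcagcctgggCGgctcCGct

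NEUROD1 held 24, CHGA 21, SYP 31 and UCHL1 20 of them, against a median of 17 over the 15812 genes with such a stretch. These numbers exceeded those of 68.7%, 59.8%, 86.0% and 56.7% of such stretches, so CHGA and UCHL1 lay near the middle. The GC content was 70.0%, 68.8%, 74.0% and 64.4%, against a median of 62.4%. Among the 6847 genes with at least 20 such dinucleotides, a limit set at the lowest of these members after their values were seen, 91.2% had an H3K4me3 peak at the start in NCI-H2087. The share was 49.0% of the 8965 genes with fewer. UCHL1 had such a peak, and NEUROD1, CHGA and SYP did not.

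Short motifs were searched on both strands of the same stretches, and no match overlapped a match of another motif. None of the 4 held the NKX core CAAGTG, the forkhead core TGTTTAC, the SOX core ACAATG, the AP-1 site TGANTCA or either part of an RE1 element, TTCAGCACC and GGACAGC. These letters are found in 8.29%, 2.26%, 6.68%, 5.05%, 0.291% and 5.34% of all such stretches. The GC box GGGCGG occurred 3 times in NEUROD1, 1 time in CHGA, 4 times in SYP and 1 time in UCHL1, and in 56.0% of all stretches at least 1 time. CHGA held 1 cyclic AMP response element, TGACGTCA, found in 2.32% of stretches and searched after the sequence had been seen, and 1 E-box, CANNTG, found in 57.8%. UCHL1 held 1 E-box and 1 match of the TATA box letters TATAAA, found in 9.25%. The UCHL1 match was on the opposite strand, printed above as tttata. NEUROD1 and CHGA hold the letters tatataa close to the start in the direction of the gene. That spelling was not among the motifs searched, so the search does not set UCHL1 apart in having a TATA box.

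Peak lists held between 7426 peaks (EP300) and 122178 (H3K4me1 in HCC364). The lowest local background of a list, solved from the deposited fold and p of its peaks, is used as its relative depth and lay between 2.52 and 2.85 fragments for the 12 lists of NKX2-1, H3K27ac and H3K4me1. In NCI-H2087 the other antibodies ranged between 1.13 fragments for c-Jun and 4.19 for H3K4me3. Where a fold is printed it is the authors' value for the summit of a peak over its local background, and the fragments are the pileup solved for that summit. Folds of different libraries are not on a common scale and are set side by side only to show which peaks stood out within each list. Where values of the 4 lines follow each other without names, their order is NCI-H2087, then NCI-H358, then NCI-H441, then HCC364. In a bulk culture, fewer cells carrying a mark and less of it per cell cannot be told apart.

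The 6 windows differed widely in how many peaks they held. Over the 20 lists SYP had 121 peaks, UCHL1 119, DLL3 96, CHGA 22, NEUROD1 20 and INSM1 3, against a median of 98 over all protein-coding genes. The windows of the members were between 102.8 kb (INSM1) and 112.6 kb (CHGA) long. A longer gene has a longer window, and no count here was scaled for that. SYP, UCHL1 and DLL3 exceeded 62.8%, 61.8% and 48.6% of all genes, and CHGA, NEUROD1 and INSM1 9.26%, 8.47% and 1.73%. Of the 19 lists other than CTCF, a peak was present in 19 at UCHL1, in 16 at SYP and at DLL3, in 10 at NEUROD1 and at CHGA and in 1 at INSM1. A gene with a peak in at most 1 of these 19 lists is uncommon, 2.10% of all protein-coding genes.

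**Figure D1:**
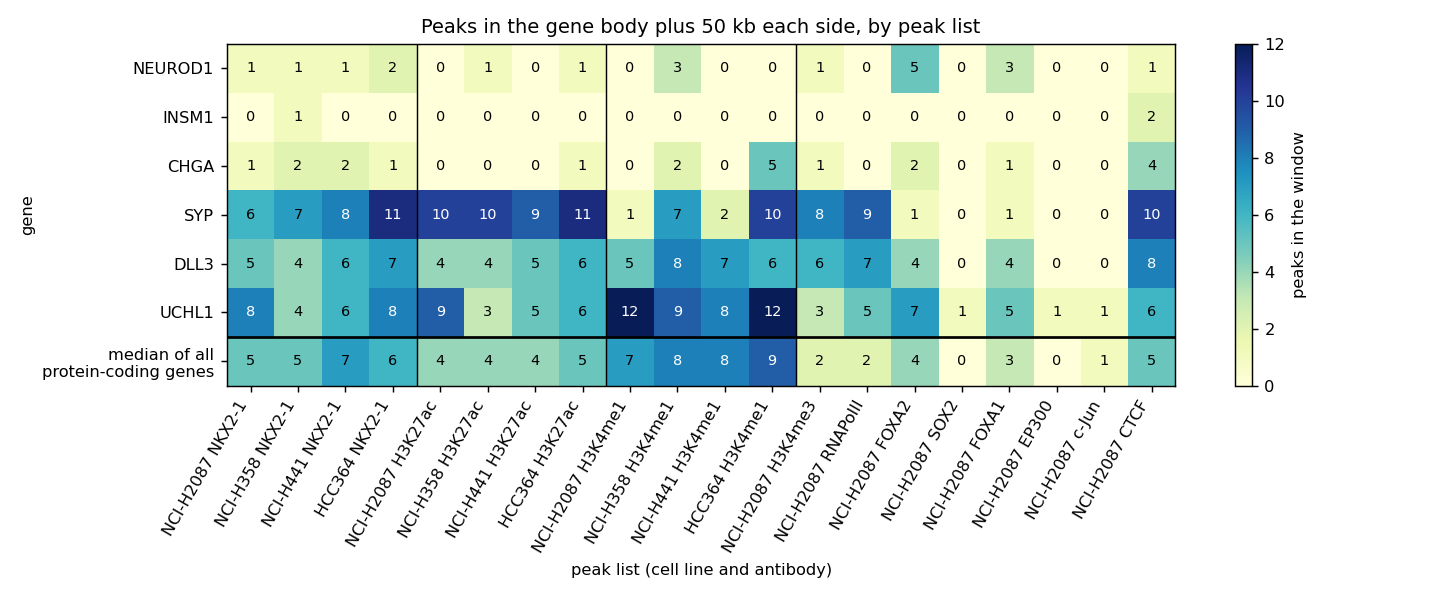
Number of peaks in the gene body plus 50 kb on each side for the 6 genes (rows) in each of the 20 peak lists (columns, 1 library each), with the median of all protein-coding genes in the bottom row and darker cells for more peaks. SYP, DLL3 and UCHL1 hold peaks in most lists, and INSM1 only 1 NKX2-1 peak and 2 CTCF peaks.

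NKX2-1 was found in the windows of all 6 members in NCI-H358 and of 5 in each of NCI-H2087, NCI-H441 and HCC364, beside 90.4% of all protein-coding genes in NCI-H358 and 92.9%, 93.3% and 94.8% in the other lines in that order. Summed over the 4 lines, SYP had 32 NKX2-1 peaks, UCHL1 26, DLL3 22, CHGA 6, NEUROD1 5 and INSM1 1, with a median of 24 over all genes. By line in the order NCI-H2087, then NCI-H358, NCI-H441 and HCC364, SYP had 6, 7, 8 and 11 peaks, DLL3 5, 4, 6 and 7, and UCHL1 8, 4, 6 and 8. NEUROD1 had 1, 1, 1 and 2, CHGA 1, 2, 2 and 1, and INSM1 0, 1, 0 and 0. The medians over all genes were 5, 5, 7 and 6. HCC364 had the most peaks at SYP, DLL3 and NEUROD1 and shared the highest number with NCI-H2087 at UCHL1.

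Most H3K27ac peaks of the 6 windows were in those of SYP, UCHL1 and DLL3, with 40, 23 and 19 over the 4 lines. The median over all genes was 17, and these counts exceeded 88.0%, 62.2% and 52.9% of genes, so DLL3 lay near the middle. Of its 19 peaks, 0 lay at the start of DLL3 and 0 elsewhere in its body. H3K27ac was present in the windows of 5 members in HCC364, 4 in NCI-H358 and 3 in each of NCI-H441 and NCI-H2087, beside 87.2%, 85.9%, 86.4% and 87.6% of all genes in that order. In NCI-H2087, then NCI-H358, NCI-H441 and HCC364, SYP had 10, 10, 9 and 11 peaks, DLL3 4, 4, 5 and 6 and UCHL1 9, 3, 5 and 6, with medians of 4, 4, 4 and 5 over all genes. NEUROD1 had a single peak in NCI-H358 and in HCC364, CHGA a single peak in HCC364, and INSM1 had none in any line. The acetylated length in the window of SYP was 17.3 kb in HCC364, 13.6 kb in NCI-H358, 11.4 kb in NCI-H441 and 6.95 kb in NCI-H2087. In the window of UCHL1 it was 7.47, 3.31, 6.30 and 9.88 kb in the same order, so NCI-H2087 had the shortest acetylated length at SYP and the longest at UCHL1.

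H3K4me1 was present at 3, 5, 3 and 4 members in NCI-H2087, then NCI-H358, NCI-H441 and HCC364, beside 89.3%, 89.5%, 90.9% and 91.3% of all genes. UCHL1 had the most, with 12, 9, 8 and 12 peaks, and DLL3 had 5, 8, 7 and 6. SYP had 1, 7, 2 and 10, the widest spread between lines of any member for the 3 antibodies used in all lines. NEUROD1 had 3 peaks, all in NCI-H358, CHGA 2 in NCI-H358 and 5 in HCC364, and INSM1 none. The medians over all genes were 7, 8, 8 and 9.

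Of the antibodies used in NCI-H2087 alone, H3K4me3 and RNAPolII had most of their peaks at SYP, DLL3 and UCHL1, and the others were distributed in other ways. H3K4me3 was present in 5 windows (87.7% of all genes) with 8 peaks at SYP, 6 at DLL3, 3 at UCHL1, 1 at NEUROD1 and 1 at CHGA. RNAPolII was present in 3 windows (79.8%), with 9 peaks at SYP, 7 at DLL3 and 5 at UCHL1, and had none at NEUROD1, INSM1 or CHGA. FOXA2 was present in 5 windows (91.9%) with 7 peaks at UCHL1, 5 at NEUROD1, 4 at DLL3, 2 at CHGA and 1 at SYP. FOXA1 was present in the same 5 windows (89.7%), with 5, 3, 4, 1 and 1 peaks. SOX2 had 1 peak in all, at UCHL1 (1 window, 32.6% of genes), as did EP300 (44.1%) and c-Jun (65.7%), and the SOX2 peak is lost when a −log10 q of at least 10 is asked for. CTCF was the only antibody of NCI-H2087 with a peak in all 6 windows (96.6%).

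Most of these peaks did not lie at the members themselves, and the windows also held other genes. The window of a gene held a median of 2 other protein-coding genes, and the windows of SYP and DLL3 held 5 each. Of the 381 peaks in the 6 windows, 9 (2.36%) lay within 1 kb of a member's start and 29 (7.61%) elsewhere in a member's body. For INSM1 and DLL3 either annotated gene end was taken as the start, and 1 of the 9 lay near the upper end of DLL3. A further 131 (34.4%) were near another protein-coding gene's annotated end, within 1 kb of it, 72 (18.9%) inside another gene and 140 (36.7%) between genes. Here and below, an end of another gene is either of its annotated edges, so it can be that gene's start. Only protein-coding genes entered these classes, so a peak said to lie between genes can lie in or at a non-coding gene. Ends of other genes took 59 of the 96 peaks at DLL3 and 50 of the 121 at SYP, and 85 of the 119 at UCHL1 lay between genes. The window of UCHL1 also holds the non-coding gene UCHL1-DT. In the bodies of NEUROD1, INSM1 and CHGA and within 1 kb of their starts no list of any line had a peak. With 10 kb in place of 50 kb on each side, the 6 windows held 18 NKX2-1 peaks over the 4 lines in place of 92, 16 of H3K27ac in place of 85 and 11 of H3K4me1 in place of 97.

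NKX2-1 was not called within 1 kb of the start of any member in any line, against 43.8%, 40.7%, 43.2% and 48.7% of all genes in NCI-H2087, then NCI-H358, NCI-H441 and HCC364, with 57.9% in at least 1 line. H3K27ac was called at the start of 2 members in NCI-H2087 (SYP and UCHL1) and 1 in HCC364 (SYP), against 56.5% and 57.1% of all genes, and of none in NCI-H358 or NCI-H441, against 55.6% and 54.7%. Counted over the lines, 2 members had H3K27ac at the start in at least 1 line, against 63.7% of genes, the other 4 members had it in none, against 36.3%, and no member had it in all 4 lines, against 48.6%. The counts of 2 for H3K27ac and 0 for NKX2-1 depend on the settings: when a −log10 q of at least 10 is asked for, only SYP keeps acetylation at its start, and only in HCC364 (10.7), since the NCI-H2087 peaks had 5.22 at SYP and 9.92 at UCHL1; no member does among the 20000 strongest peaks of each list, and UCHL1 gains NKX2-1 when 5 kb is allowed. H3K4me1 was called at the start of 1 member in 1 line, UCHL1 in NCI-H358 (40.5% of genes in that line, and 62.7% in at least 1 line). In NCI-H2087, NCI-H441 and HCC364 no member had it, against 38.9%, 50.1% and 31.8% of genes.

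In NCI-H2087, H3K4me3 was called at the start of 2 members, DLL3 and UCHL1 (65.3% of genes), RNAPolII at 1, SYP (52.7%), and CTCF at 1, DLL3 (30.5%). FOXA2, FOXA1, EP300, c-Jun and SOX2 were called at none, against 19.7%, 18.7%, 13.0%, 4.70% and 0.841% of genes. No member had H3K4me3, H3K27ac and RNAPolII together at its start, the state of 50.6% of all genes. NEUROD1, INSM1 and CHGA had none of the 3, as did 32.5% of genes. UCHL1 had H3K4me3 with H3K27ac and without RNAPolII (4.27%), DLL3 H3K4me3 alone (9.35%), and SYP H3K27ac and RNAPolII without H3K4me3 (0.461%, or 92 genes). At a −log10 q of at least 10 neither acetylation peak remains in NCI-H2087, which leaves UCHL1 with H3K4me3 and SYP with RNAPolII. The other combinations, H3K4me3 with RNAPolII (1.09%), H3K27ac alone (1.23%) and RNAPolII alone (0.561%), were found at no member.

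NEUROD1, which drives neuronal and endocrine differentiation, lies at chr2:181668295-181680517 on the minus strand, with CERKL as the other coding gene of its window. Its strongest NKX2-1 peak within NCI-H2087, NCI-H358 and NCI-H441 lay at the same place, 17.3 kb downstream of the start and beyond the end of the gene, with a fold of 7.15 (27 fragments), 15.7 (64) and 6.49 (24). HCC364 had no peak there; its strongest NKX2-1 peak had a fold of 7.55 (27 fragments) 17.9 kb upstream of the start. The region at 17.3 kb downstream also carried FOXA2 with a fold of 35.8 (183 fragments) and FOXA1 with 24.6 (91 fragments) in NCI-H2087. Neither H3K27ac nor H3K4me1 was called there in any line.

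The other 4 FOXA2 peaks of the NEUROD1 window were weaker, with folds of 7.96 at 31.8 kb and 5.52 at 38.8 kb downstream, both in CERKL, and 7.40 at 6.7 kb and 4.48 at 8.4 kb upstream. The only H3K4me3 peak (fold 16.2, 83 fragments) lay at an annotated end of CERKL 23.5 kb downstream. It was next to the weak H3K27ac peaks of NCI-H358 (3.82, 14 fragments) and HCC364 (4.07, 16 fragments). The H3K4me1 peaks of NCI-H358 had folds of 5.40, 4.49 and 2.85, and the first of them, 2.7 kb upstream, was the peak of any list nearest to the start of NEUROD1.

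INSM1, a repressor that acts downstream of the proneural factors, lies at chr20:20368104-20370949 between CFAP61 and RALGAPA2. Its window held 3 peaks. The only NKX2-1 peak, in NCI-H358 (fold 5.81, 30 fragments), lay 7.5 kb from the lower end of INSM1 at the end of CFAP61, on the stronger of 2 CTCF peaks of NCI-H2087 (fold 40.6, 298 fragments). H3K27ac and H3K4me1 were called in the window in none of the 4 lines, nor were H3K4me3, RNAPolII, FOXA2, FOXA1 or SOX2 in NCI-H2087, where they were profiled.

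CHGA, the granule protein measured in blood as a marker of neuroendocrine tumours, lies at chr14:92922664-92935285 on the plus strand, followed by ITPK1. A region inside ITPK1, 23.3 kb downstream of the start of CHGA, had NKX2-1 in 3 lines, with a fold of 14.6 (55 fragments) in NCI-H358, 7.59 (49) in HCC364 and 4.93 (18) in NCI-H441 and no peak in NCI-H2087. In HCC364 it carried the window's single H3K27ac peak (fold 10.6, 42 fragments), and H3K4me1 covered it in NCI-H358 (10.9, 39 fragments). In HCC364 a pair of H3K4me1 peaks (5.45, 23 fragments, and 9.43, 35 fragments) overlapped the edges of the NKX2-1 peak and left its summit in the gap between them. NCI-H441 had NKX2-1 there without either mark. In NCI-H2087, which had no NKX2-1 there, a weak FOXA2 peak was called (4.28, 21 fragments).

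The strongest NKX2-1 peak of the CHGA window in NCI-H2087 (6.58, 23 fragments) and NCI-H441 (7.27, 27 fragments) was another region, 12.3 kb upstream, with no mark. The second FOXA2 peak (9.16, 58 fragments) lay 41.9 kb upstream with FOXA1. The single H3K4me3 peak (8.10, 41 fragments) lay 10.9 kb upstream between genes.

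**Figure D2:**
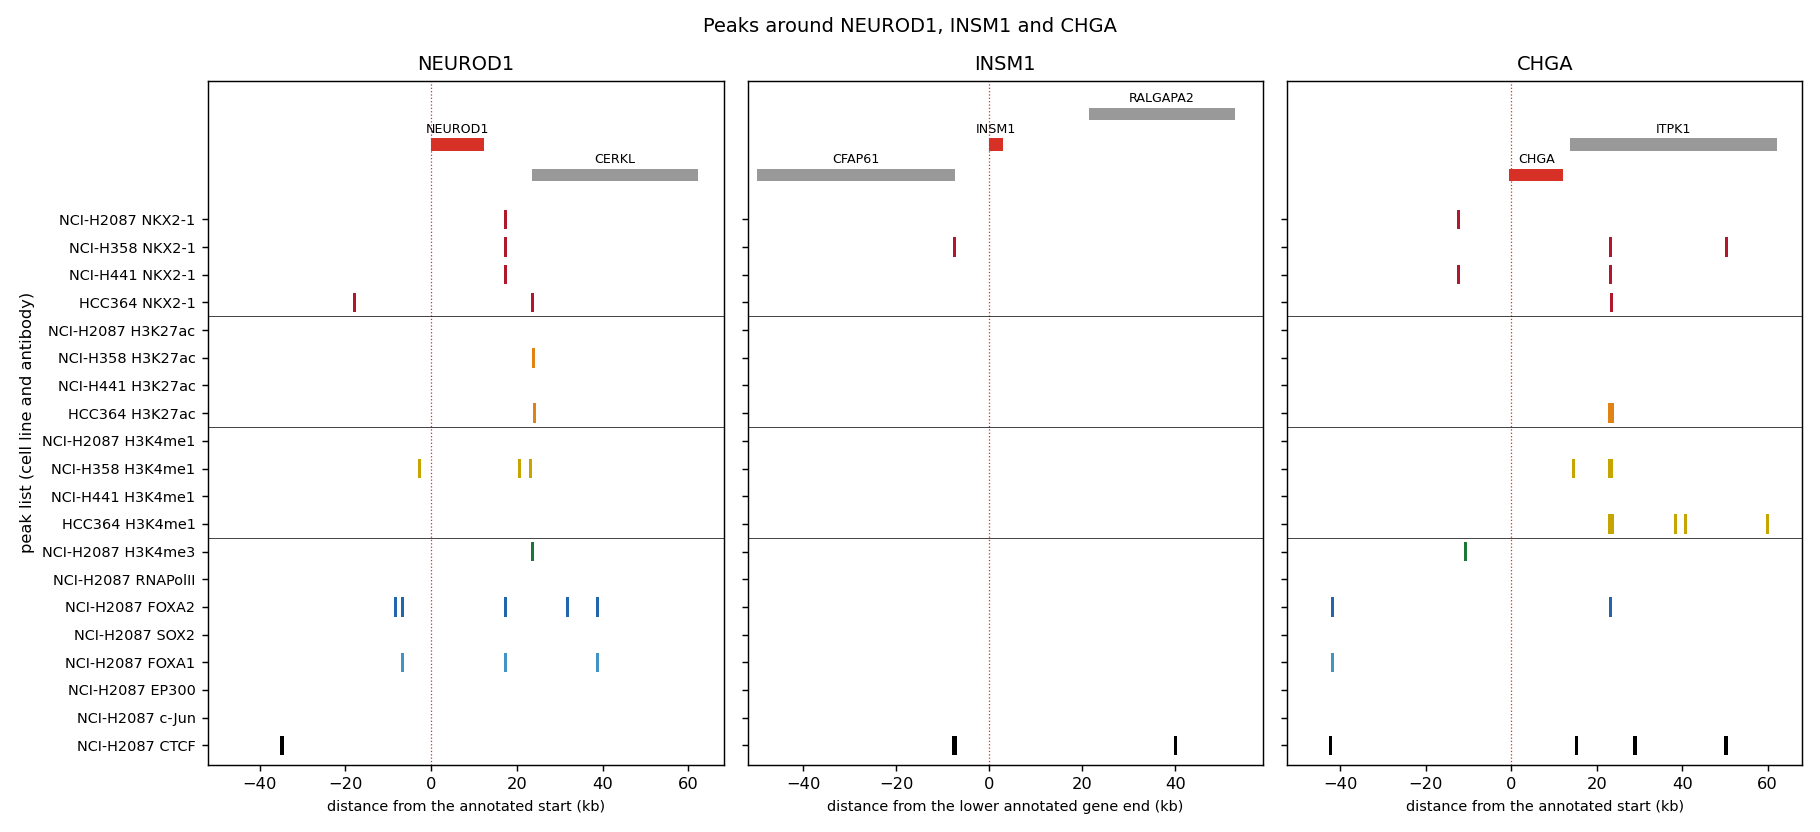
Peaks of the 20 lists (rows, 1 library each) around NEUROD1, INSM1 and CHGA, by distance in kb from the annotated start (for INSM1 from the lower annotated gene end); red bars at the top are the members, grey bars other protein-coding genes, and peaks narrower than 0.7 kb are drawn 0.7 kb wide. No peak touches the body of any of the 3 genes, and the NKX2-1 peaks at NEUROD1 in 3 lines stand above each other 17.3 kb downstream.

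SYP, one of the most used stains for neuroendocrine tumours, lies at chrX:49187815-49200193 on the minus strand, and the antisense non-coding gene SYP-AS1 (chrX:49198839-49202454) overlaps its start. The start peaks all lay just upstream of SYP, inside SYP-AS1. They were H3K27ac in NCI-H2087 (fold 4.18, 14 fragments over a background of 2.59) and HCC364 (5.89, 21 fragments over 2.73), and RNAPolII in NCI-H2087 (9.03, 35 fragments over 2.99). The H3K27ac peaks exceeded 14.5% of their list in NCI-H2087 and 43.1% in HCC364. ChIP peaks carry no strand, so signal of SYP and of SYP-AS1 cannot be told apart.

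Most signal within SYP lay far from its annotated start, 8.5 to 9.5 kb into the body. H3K4me3 had a fold of 55.6 there (366 fragments), RNAPolII 8.77 (39 fragments), and H3K27ac was called in a pair of peaks in every line. The first peak of the pair had folds of 8.08, 11.6, 12.2 and 14.2 in NCI-H2087, then NCI-H358, NCI-H441 and HCC364. The second had 5.01, 10.7, 4.76 and 6.97. NKX2-1 was called over the gap between the 2 in every line, with 6.31 (22 fragments), 7.18 (29), 7.27 (27) and 12.2 (42). A CTCF peak (31.6, 139 fragments) lay nearer the start, at 7.3 kb, and carried NKX2-1 in NCI-H358 (7.79), NCI-H441 (5.45) and HCC364 (5.94), but not in NCI-H2087.

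The other 4 NKX2-1 regions shared by all 4 lines around SYP lay outside its body, 3 at neighbouring protein-coding genes and 1 between them. The strongest was at the end of MAGIX, 33.0 kb downstream, with folds of 9.87, 19.6, 19.7 and 32.2 (35, 72, 75 and 113 fragments) in NCI-H2087, then NCI-H358, NCI-H441 and HCC364. It was the strongest NKX2-1 peak of the window in each line. Another in MAGIX, at 36.0 kb, had 8.22, 10.8, 9.08 and 9.05, and one at the end of PRICKLE3, at 15.2 kb, had 4.11, 8.86, 7.79 and 9.33. The one at 44.4 kb had 8.77, 10.2, 10.4 and 13.7. It lay between protein-coding genes but overlapped an annotated end of the non-coding gene LOC105373195 (chrX:49139605-49156278). All 5 shared regions carried H3K4me3 and RNAPolII in NCI-H2087 and H3K27ac in 4 lines. After the peak in the body, the strongest H3K4me3 peaks of the window lay at the ends of PLP2 (51.9, 268 fragments) and CCDC22 (42.0, 217 fragments). The strongest RNAPolII peaks lay at 44.2 kb and in MAGIX (12.0 and 47 fragments each), followed by the one at the start of SYP. The single FOXA2 peak (8.37, 42 fragments) lay 2.0 kb upstream of SYP, and SOX2 had none.

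DLL3, whose protein is found at the surface of small-cell lung cancer cells, lies at chr19:39498947-39508469 between TIMM50 and SELENOV. An H3K4me3 peak lay over its lower end (fold 18.9, 97 fragments over a background of 4.19) and a weaker one within 1 kb of its upper end (9.45, 48 fragments). They exceeded 32.4% and 20.2% of the H3K4me3 list. A CTCF peak (10.4, 45 fragments) lay just outside the lower end and another (10.4, 45 fragments) in the body. H3K27ac was not called at either end in any line, and H3K4me3 without H3K27ac in any of the 4 lines is a state of 5.94% of genes. The only other peak in the body was H3K4me1 in NCI-H358 (4.55, 15 fragments).

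The stronger signal of the DLL3 window lay at the genes around it. The strongest H3K4me3 peaks were at the ends of TIMM50 (131, 901 fragments), EID2 (85.6, 443 fragments) and EID2B (60.3, 345 fragments). The strongest RNAPolII peaks lay at EID2 (19.4, 81 fragments) and at both ends of TIMM50 (12.3, 79 fragments, and 5.02, 19 fragments). NKX2-1 was shared by 4 lines at TIMM50, 19.2 kb below the lower end of DLL3, with 15.7, 14.2, 20.4 and 24.2 (88, 79, 89 and 144 fragments), and at 2 places in EID2, with 13.3, 4.69, 6.37 and 13.1 at 40.4 kb and 8.93, 10.2, 6.21 and 15.0 at 41.3 kb. The last of the shared regions, 59.4 kb above the lower end and between genes, had 6.48, 16.5, 8.82 and 6.59 and was the strongest NKX2-1 peak of the window in NCI-H358, while the TIMM50 region was the strongest in the other lines. That last region also held the strongest FOXA2 peak (40.6, 239 fragments), with H3K27ac in 3 lines and not in HCC364 and H3K4me1 in all 4. The other FOXA2 peaks, with folds of 10.6, 5.58 and 4.02, lay at the TIMM50 and EID2 regions just named.

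UCHL1, a neuronal enzyme that releases ubiquitin from small adducts, lies at chr4:41256928-41268455 on the plus strand and had 3 kinds of peak at its start, the most of the 6 genes. H3K4me3 covered its first 1.5 kb (fold 33.2, 218 fragments over a background of 5.60), above 41.3% of the H3K4me3 list. H3K27ac was called there in NCI-H2087 alone (4.86, 25 fragments over 4.35, −log10 q of 9.92), and H3K4me1 over the start in NCI-H358 alone (4.57, 22 fragments). Inside the gene, 2.0 kb from the start, NKX2-1 was called in NCI-H2087 (5.11, 22 fragments), NCI-H358 (5.17, 40 fragments) and HCC364 (4.25, 22 fragments) and not in NCI-H441. That place carried a CTCF peak of NCI-H2087 with a fold of 61.9 (282 fragments). The nearer annotated edge of the non-coding gene UCHL1-DT (chr4:41220074-41256727) lies 0.2 kb upstream of the start of UCHL1. The H3K4me1 peak of NCI-H358 at that start overlaps this edge of UCHL1-DT. Signal of UCHL1 and of UCHL1-DT cannot be told apart there.

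The strongest NKX2-1 region of the UCHL1 window lay 47.1 kb downstream, between genes, in all 4 lines. Its folds were 19.0, 13.6, 21.7 and 36.9 in NCI-H2087, then NCI-H358, NCI-H441 and HCC364 (157, 107, 182 and 188 fragments), above 86.9%, 81.1%, 87.7% and 95.6% of the NKX2-1 peaks of the list. The local background was also raised, to 7.30, 6.93, 7.44 and 4.12 fragments, against list minimums of 2.65, 2.72, 2.85 and 2.54, and its part in these folds was not tested. H3K4me1 was called there in 4 lines and H3K27ac in NCI-H2087 (12.9), NCI-H441 (11.6) and HCC364 (8.79) and not in NCI-H358.

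In NCI-H2087 the same region held the only SOX2 peak of all 6 windows (5.46, 23 fragments), the only c-Jun peak (8.91, 25 fragments), FOXA2 (15.1, 92 fragments), FOXA1 and a weak RNAPolII peak (3.40, 31 fragments). The strongest FOXA2 peak of the window (22.9, 117 fragments) lay at 36.5 kb and another (8.92, 45 fragments) at 28.7 kb. The other NKX2-1 region shared by 4 lines lay at the end of APBB2, 44.0 kb upstream, with 5.89, 6.94, 5.37 and 8.89. The strongest H3K4me3 peaks lay at an annotated end of APBB2 (104, 598 fragments) and 40.1 kb upstream (83.4, 458 fragments). At the second of these places H3K27ac had folds of 49.0, 56.8, 60.5 and 31.8 in NCI-H2087, then NCI-H358, NCI-H441 and HCC364, RNAPolII was strongest (46.8, 198 fragments), and the single EP300 peak (6.07, 15 fragments) was called. The other RNAPolII peaks were at the end of APBB2 (12.1, 52 fragments), at 62.6 kb (12.0, 96 fragments) and at 50.8 kb downstream (3.46, 26 fragments). An H3K27ac region with its middle 62.5 kb downstream crossed the edge of the window, with folds of 38.3, 19.6, 47.8 and 31.9. It also overlapped SOX2, c-Jun and EP300 peaks of NCI-H2087 that lay past the edge. Those peaks were not counted, so the single peaks of these factors depend on where the window ends.

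**Figure D3:**
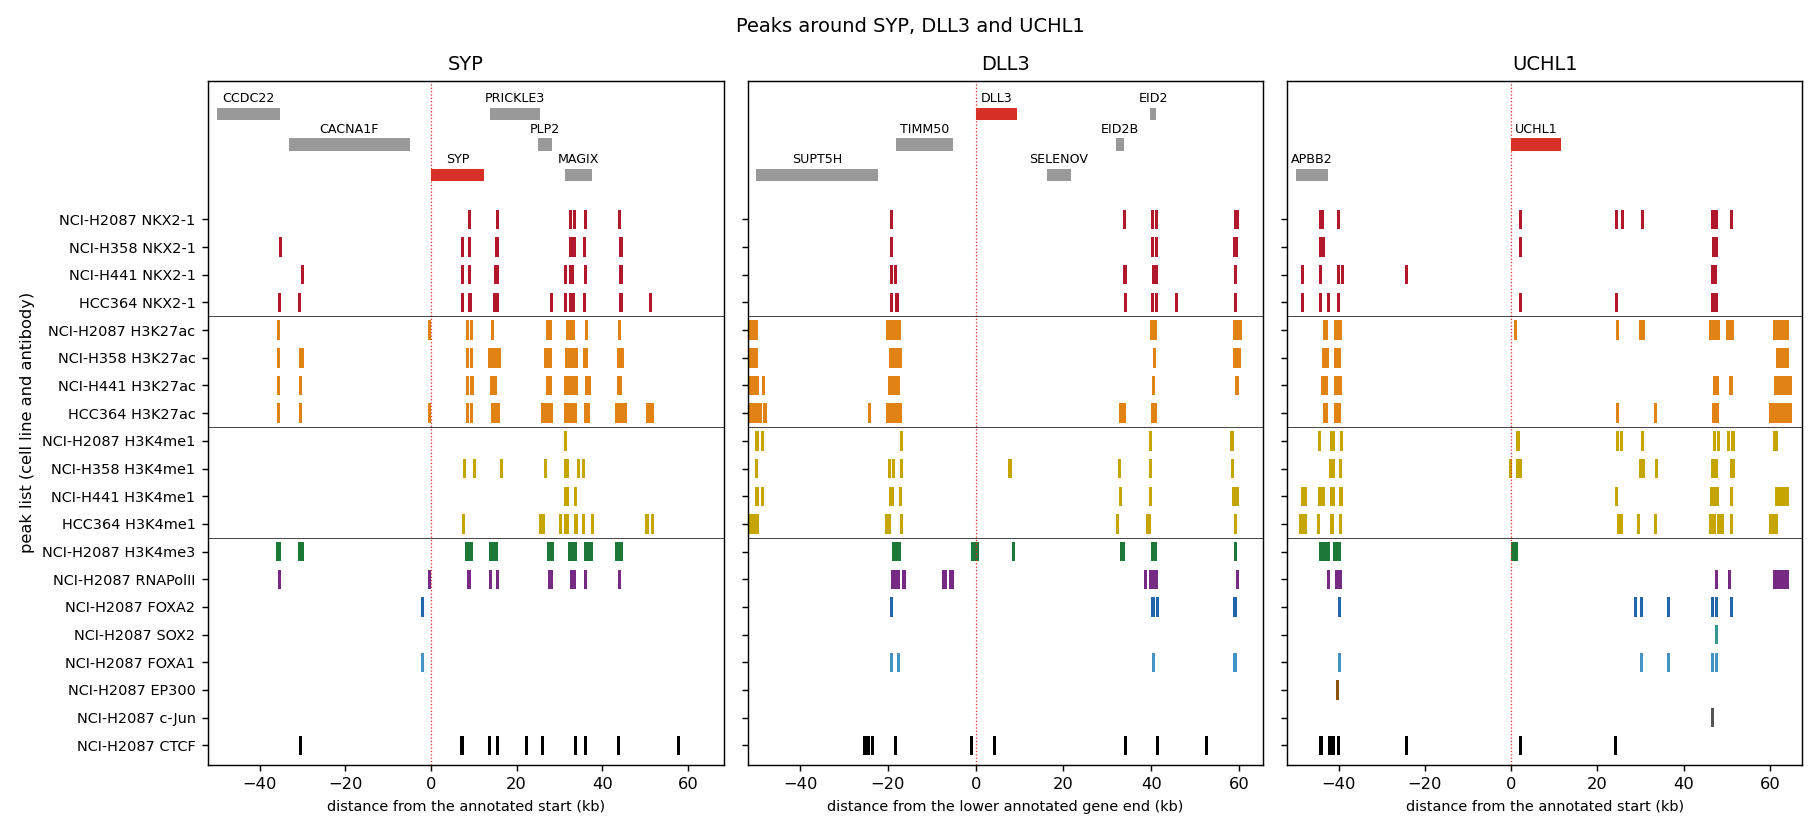
Peaks of the 20 lists (rows, 1 library each) around SYP, DLL3 and UCHL1, by distance in kb from the annotated start (for DLL3 from the lower annotated gene end), drawn as in the map of NEUROD1, INSM1 and CHGA. Columns of peaks stand at the ends (either annotated edge) of other genes around SYP and DLL3 and between protein-coding genes around UCHL1, for example 47.1 kb downstream, while the starts of the members hold few.

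Merging the peaks of the 4 lines gave 38 NKX2-1 regions in the 6 windows, of which 15 were bound in 1 line, 6 in 2, 6 in 3 and 11 in all 4. In the whole genome 22.3% of 145799 NKX2-1 regions were bound in 4 lines. The 11 regions comprised 5 at SYP, 4 at DLL3 and 2 at UCHL1, so 3 members had at least 1, beside 80.5% of all genes. H3K27ac formed 30 regions, of which 14 were shared by 4 lines, 8 of them at SYP and 3 each at DLL3 and UCHL1, and in the whole genome 23.9% were shared by 4. H3K4me1 formed 41 regions, of which 10 were shared by 4 lines and 16 were found in 1, beside 21.2% shared by 4 in the whole genome.

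**Figure D4:**
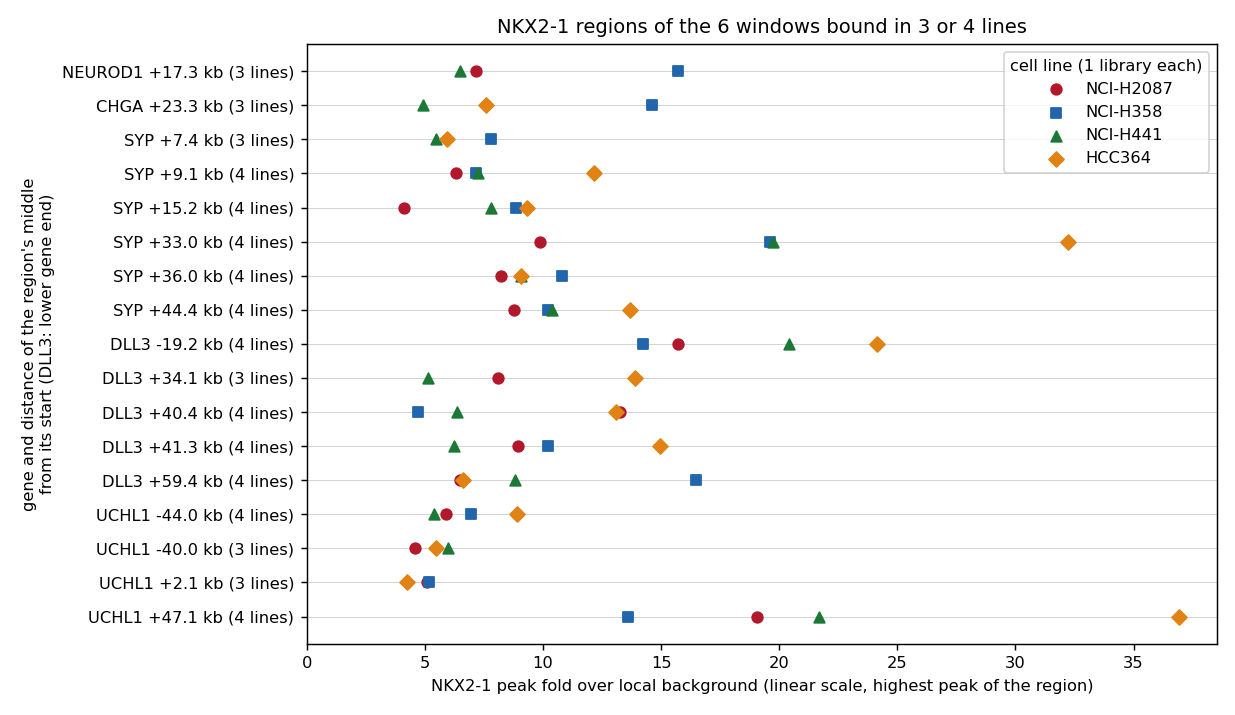
Fold of the NKX2-1 peak over its local background (linear scale; 1 point per cell line, 1 library each) at the regions of the 6 windows bound in 3 or 4 lines, named by gene and distance from its start in kb (DLL3: lower gene end). Within NCI-H2087, NCI-H441 and HCC364 the region 47.1 kb downstream of UCHL1 had the highest fold (19.0, 21.7 and 36.9), and within NCI-H358 the region 33.0 kb downstream of SYP did (19.6); points can cover each other, and folds of different lines are not on a common scale.

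NKX2-1 peaks around the 6 genes were set beside the histone marks in 2 sets of windows, those with few and those with many peaks in these same lists. Over the 4 lines H3K27ac had 2, 0 and 1 peaks at NEUROD1, INSM1 and CHGA, and 40, 19 and 23 at SYP, DLL3 and UCHL1. The contrast between the sets was therefore in part fixed by how they were formed. Over the 4 lines, 2 of the 12 NKX2-1 peaks (16.7%) in the windows of NEUROD1, INSM1 and CHGA overlapped an H3K27ac peak of the same line, and 9 of the 12 (75.0%) overlapped neither H3K27ac nor H3K4me1. In the windows of SYP, DLL3 and UCHL1 60 of 80 (75.0%) overlapped H3K27ac and 11 of 80 (13.8%) neither mark. All NKX2-1 peaks of the lists did so for 52.5%, 51.3%, 46.4% and 51.6% in NCI-H2087, then NCI-H358, NCI-H441 and HCC364. With H3K4me1 the order was another: 21 of 26 NKX2-1 peaks at UCHL1 overlapped it, against 9 of 32 at SYP and 8 of 22 at DLL3. Of all list peaks 61.7%, 69.0%, 69.6% and 62.6% overlapped H3K4me1, and 24.8%, 18.9%, 23.1% and 22.5% neither mark. Peaks in 1 window share neighbouring genes and are not independent, so no test was made of these shares.

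Other genes of the neuroendocrine lineage were counted in the same way from lists chosen with earlier results of these data known. Over all protein-coding genes, 63.7% had H3K27ac at the start in at least 1 line, 65.3% H3K4me3, 52.7% RNAPolII and 57.9% NKX2-1. The all-gene median was 24 NKX2-1 peaks over 4 lines. Of 16 neuroendocrine transcription factors, 3 had H3K27ac at the start in at least 1 line (18.75%), 6 H3K4me3 (37.5%), 3 RNAPolII (18.75%) and 2 NKX2-1 (12.5%). The median number of NKX2-1 peaks over 4 lines was 7.5. MYCL, a MYC family gene amplified in some small-cell tumours, had H3K27ac at its start in 3 lines and 23 NKX2-1 peaks. FOXA2, a forkhead factor of foregut epithelium that also serves neuroendocrine cells, had it in 3 lines and 11 NKX2-1 peaks, and ST18, a zinc-finger factor, in 2 lines and 58 NKX2-1 peaks. MYCL and FOXA2 carried H3K4me3, H3K27ac and RNAPolII at the start in NCI-H2087 and ST18 none of the 3.

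Of 26 granule, vesicle and neuronal genes, 9 had H3K27ac at the start in at least 1 line (34.6%), 11 H3K4me3 (42.3%), 5 RNAPolII (19.2%) and 11 NKX2-1 (42.3%). Their median of 24.5 NKX2-1 peaks was close to the 24 of all genes. SYT1, STX1A and VAMP2, genes of vesicle fusion, had H3K27ac at the start in 4 lines and 94, 49 and 73 NKX2-1 peaks in their windows. Of 12 genes of the Notch pathway and of neuronal repression, 10 had H3K27ac at the start in at least 1 line (83.3%) and 12 H3K4me3 (100%). RNAPolII was at the start of 8 (66.7%) and NKX2-1 of 4 (33.3%), with a median of 34 NKX2-1 peaks. The receptor NOTCH2, the ligand JAG1 and the Notch target HES1 had H3K27ac at the start in 4 lines and 76, 55 and 52 NKX2-1 peaks.

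Genes of the lung epithelium served as contrast. Of 12 alveolar type 2 genes, 10 had H3K27ac at the start in at least 1 line, 8 H3K4me3, 7 RNAPolII and 10 NKX2-1. The shares for H3K4me3 and RNAPolII, 66.7% and 58.3%, lay near those of all genes, 65.3% and 52.7%. For H3K27ac and NKX2-1 the share was 83.3% each, against 63.7% and 57.9%. The median was 38.5 NKX2-1 peaks, against 24 for all genes. LPCAT1, a surfactant lipid enzyme, MUC1, an apical mucin, and SFTPC, surfactant protein C, had H3K27ac at the start in 4 lines and 54, 53 and 43 NKX2-1 peaks. Of 10 epithelial genes all had H3K27ac, RNAPolII and NKX2-1 at the start and 9 H3K4me3, with a median of 57.5 NKX2-1 peaks. KRT8 and KRT7, keratins of simple epithelium, and CDH1, E-cadherin, had H3K27ac at the start in 4 lines and 97, 71 and 85 NKX2-1 peaks. The 6 neuroendocrine members had 2, 2, 1 and 0 of 6 for H3K27ac, H3K4me3, RNAPolII and NKX2-1 at the start, against 63.7%, 65.3%, 52.7% and 57.9% of all genes. Their median of 14 NKX2-1 peaks in the window, against 24 for all genes, describes no single member. INSM1, NEUROD1 and CHGA had 1, 5 and 6, while DLL3 had 22, UCHL1 26 and SYP 32. These window counts were not scaled for gene length in any list.

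**Figure D5:**
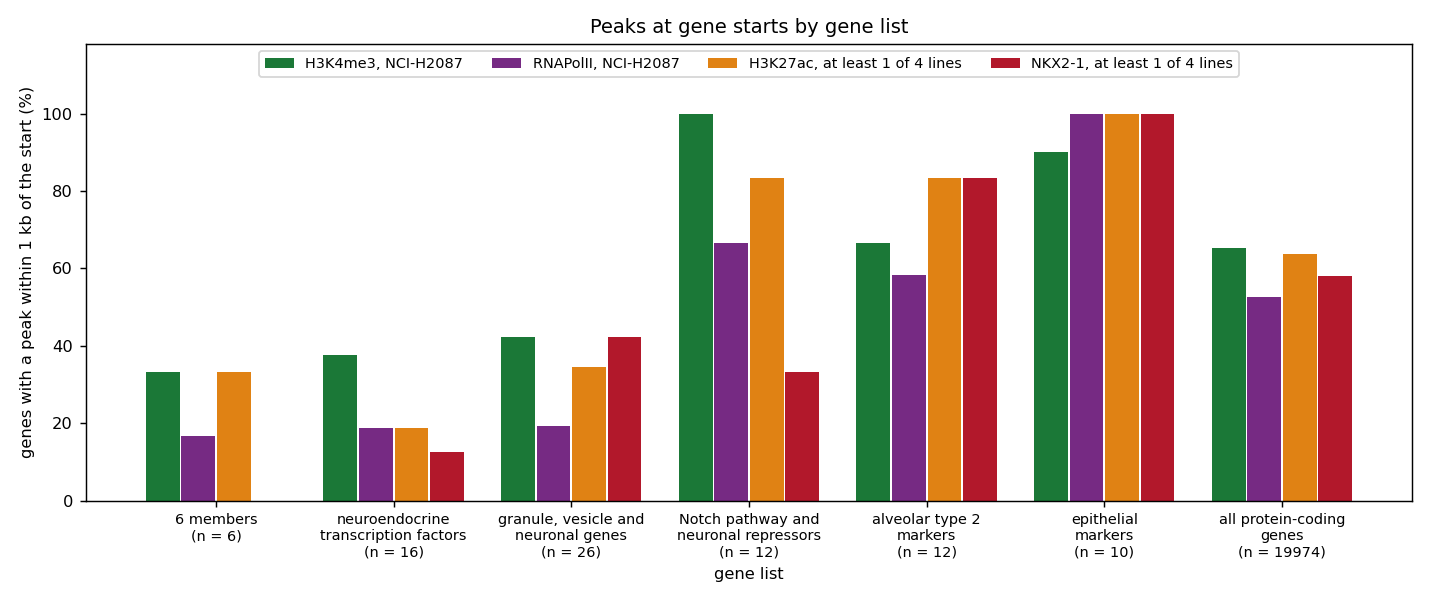
Share of genes with a peak within 1 kb of the start (percent, bars from 0) for the 6 neuroendocrine genes, 5 wider gene lists and all protein-coding genes, by mark; H3K4me3 and RNAPolII are from NCI-H2087, H3K27ac and NKX2-1 from at least 1 of the 4 lines. The 6 genes have 33.3% for H3K4me3, 16.7% for RNAPolII, 33.3% for H3K27ac and 0% for NKX2-1, against 65.3%, 52.7%, 63.7% and 57.9% of all genes.

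The genes whose peak numbers over the 20 lists were most like each member's, outside 200 kb of it, were found by Pearson correlation of log2(peaks + 1) after subtracting each list's mean, as a description. All points of a gene share its window, and the 20 points share lines and antibodies. NEUROD1 was closest to OR51I2 (r = 0.89) and HTR1E (0.87), an olfactory and a serotonin receptor gene, and CHGA to GABRA2 and CLU (0.84 each). INSM1 was closest to ZNF735 (1.00) and UBTFL1 (0.99), a likeness that rests on 3 peaks. SYP was closest to SYN1 (0.96), the synapsin gene, and TIMP1 (0.92), DLL3 to INTS15 (0.89) and ZDHHC4 (0.87), and UCHL1 to HOXA4 (0.80) and HOXA3 (0.77). The 2 genes of each of these last 3 pairs are neighbours whose windows overlap.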

How the data were processed

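The submitters' processing notes name the build hg38 (GRCh38), MACS2 in versions 2.1.1 and 2.2.7.1, Bowtie2 2.2.9, Trimmomatic 0.36, bedtools and SAMtools 1.9; the role of each tool, and which control entered peak calling, are not given in the sources used here. The deposited files were 1 peak list per library, in narrowPeak format. The authors' fold of a summit over local background is a linear ratio, and the deposited −log10 p and −log10 q are those of the peak caller; no list held a −log10 q under 3. The 5 input libraries were not analysed here.

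Fold and p were solved together for the whole-number pileup and the background of each summit, and in every list 99.2% or more of the peaks could be solved, with a tolerance of 0.01 on −log10 p. Depth in reads is unknown, and the lowest background stands in for it. Peaks on chromosomes 1 to 22 and X were used. A peak belonged to a window when it overlapped it by at least 1 bp, and to a start when within 1 kb of it. Starts came from the RefSeq promoter table for 15812 genes, and for the other 4162, INSM1 and DLL3 among them, either annotated gene end was used. Distances are given along the gene, and for INSM1 and DLL3 from the lower coordinate. Regions of a mark are peaks of the 4 lines merged. Counts used Python 3.11.15 with numpy 2.4.6, pandas 2.3.3 and scipy 1.17.1, and were checked on simulated peaks.

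Groups came from the sample titles, with 1 library per line and antibody. So nothing was tested between lines, and each count stands beside the same count over all 19974 protein-coding genes. Depth, antibody and threshold all shape a list, so absence from it does not show absence of the protein or mark. Named were all 6 members, each peak within 1 kb of a start, and the SOX2, FOXA2, H3K4me3 and RNAPolII peaks of NCI-H2087 (the 3 of highest fold where a window held more than 5). Also named were the NKX2-1 peak of highest fold per line and window, every region bound in 4 lines, the 2 genes most alike per member, and 3 genes per wider list, those with most H3K27ac at the start and then most NKX2-1 peaks. FOXA1, CTCF, EP300, c-Jun, H3K27ac and H3K4me1 peaks and regions bound in 3 lines were named after their values were seen. The members and lists were chosen with earlier results of these data known.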

Additional observations from a re-analysis of the deposited data

How the results depend on the processing

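Counts were recomputed with a −log10 q of at least 10, with the 20000 strongest peaks of each list, with a window of 10 kb, with 0.5 of a peak inside the window and with 5 kb from the start. The 10 kb window, which leaves out most neighbouring genes, gave 18 NKX2-1 peaks over 4 lines in place of 92, 16 H3K27ac in place of 85 and 11 H3K4me1 in place of 97. In NCI-H2087 it gave 5 H3K4me3 in place of 19, 6 RNAPolII in place of 21, 4 FOXA2 in place of 19 and 0 SOX2 in place of 1, and it left 2 NKX2-1 regions bound in 4 lines in place of 11. The 20000 strongest peaks gave 14 NKX2-1, 47 H3K27ac, 16 H3K4me1 and 3 FOXA2 peaks, 2 regions bound in 4 lines and 0 members with H3K27ac at the start in place of 2; fewer peaks enter by construction. A −log10 q of at least 10 gave 49 H3K4me1, 13 RNAPolII and 0 SOX2 peaks and 1 member with H3K27ac at the start. With 5 kb from the start, 1 member had NKX2-1 there in place of 0. Of the 120 counts of a member in a list, 42 were 0 and could not move under settings that only remove peaks. Of the other 78, 55 stayed within 1.5 times under the stricter q, 17 under the 20000 strongest, 8 under 10 kb and 75 under the overlap of 0.5. The overlap of 0.5 moved no summed count by more than 1.5 times. No paired analysis was possible because each line and antibody is 1 library. Depth limits what a missing call means: the c-Jun and EP300 lists have the lowest backgrounds, 1.13 and 1.52 fragments.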
